A study of Mus musculus with 48 samples.

Results

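TAN sWAT was compared with ad-lib sWAT at 12 PM, using 8 of the 48 bulk RNA-seq libraries of the series, 4 from TAN mice and 4 from ad-lib mice, chosen by the time label in the count table. All 48 libraries came from C57BL/6 male mice that were 8 months old by the sample labels (C57BL/6J in the study), and no gene was deleted and no agent was given in these groups. TAN stands for twice-a-night feeding, in which mice receive food only in 2 windows of the dark phase, and ad-lib controls have food at all times. Pair feeding was attempted, but TAN mice ate slightly less than ad-lib mice, so that the timing and the amount of food cannot be told apart. The depot is the inguinal subcutaneous fat pad (iWAT in the labels, sWAT in the study). The series text names its stromal vascular fraction, whereas the paper describes frozen depots, and the adipocyte transcripts were abundant in all 8 libraries (9 markers summing to 22020 to 50793 in ad-lib and to 22172 to 34210 in TAN, in counts-per-million units after TMM scaling, CPM).

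The time of these libraries is given differently in 2 sources. The sample labels and the count table say 12 PM, which falls in the light phase, after the second meal and before the next night. The supplementary FPKM tables of the paper list each of the 8 libraries under the same animal name at a time 12 h apart, which is 12 AM, after the first meal. Over 979 genes, all 48 libraries matched the column 12 h apart and 0 matched the column of the same time. The mean FPKM values deposited with the series followed the count-table labels in 12 of 12 columns. Times below are those of the count table, and the members of the groups are the same under either labelling.

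White adipose tissue stores energy as triglyceride, part of which adipocytes make themselves from sugar, a route called de novo lipogenesis. Glucose enters through GLUT4 and fructose through GLUT5, glycolysis turns the sugar into pyruvate, and mitochondria turn pyruvate into citrate. Citrate leaves the mitochondrion through the citrate carrier, is cleaved to acetyl-CoA by ATP citrate lyase, and is built into palmitate by acetyl-CoA carboxylase and fatty acid synthase with electrons from NADPH. Feeding is known to raise this route through insulin and the transcription factors SREBP-1c and ChREBP.

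Total counts were 20088111 to 26241169 in the ad-lib libraries and 17079789 to 24962579 in the TAN libraries. TAN libraries had more genes with at least 1 count (21770 to 23979 against 17691 to 20819) and a larger share of mitochondrially encoded counts (5.71% to 6.98% against 3.57% to 5.45%), without overlap between the groups. The exact permutation test gave p = 0.0286 for both, the smallest value that 70 arrangements of 4 and 4 libraries allow, and 0.214 after Benjamini-Hochberg adjustment over the 15 library measures tested. Several libraries stood apart by RNA of other cell types. Lymphocyte markers summed to 767 and 196 CPM in ad-lib replicates 1 and 3, to 3177 and 1989 CPM in ad-lib replicates 2 and 4, and to 1013 to 1604 CPM in the TAN libraries. Skeletal muscle markers summed to 2583 CPM in ad-lib replicate 3 and to 1547 CPM in TAN replicate 1, against 7.47 to 296 CPM in the other libraries. The part of these differences in the results was not tested beyond the fits given below.

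TAN sWAT had higher expression of 17 genes and lower expression of 1 gene at 12 PM, and most of the genes that increased belong to the route from sugar to fatty acids. A gene was called at an adjusted p under 0.05 (edgeR's quasi-likelihood test, Benjamini-Hochberg adjustment over all genes tested) and a log2 fold change beyond 1. The calls were 0.0851% of the 19977 genes tested for the higher genes and 0.00501% for the lower gene, and dropping the requirement on fold change added 0 genes. Without adjustment of the p-value 476 genes were higher and 110 lower at that fold change. All 4 TAN libraries lay above all 4 ad-lib libraries for 659 genes (3.3%) and below them for 307 (1.54%), and the median log2 fold change of all genes tested was 0.04.

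The number of calls rested on single libraries. Without ad-lib replicate 2, 3 genes were called higher, and 4 were called without ad-lib replicate 1, 6 without ad-lib replicate 4, 8 without TAN replicate 4, 9 without TAN replicate 1 and 10 without TAN replicate 2. The counts were 17 without ad-lib replicate 3 and 20 without TAN replicate 3. Tkt and Pfkl were called in all 8 of these fits. The other called genes described here kept their sign in each of them, and their log2 fold changes and the number of fits that called them are given with each gene. With the lymphocyte markers as a covariate 79 of the 19977 genes tested were higher and 4 lower, and with the skeletal muscle markers as a covariate 11 were higher and 1 lower. The lymphocyte covariate raised the medians of most pathway lists, among them fatty acid oxidation (0.05 to 0.39) and lipolysis (0.03 to 0.45). That of the lipogenic regulators fell (0.39 to 0.31). Calls added by this covariate in a list are therefore not particular to that list. All 17 genes were among those higher with the lymphocyte covariate.

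**Figure D1:**
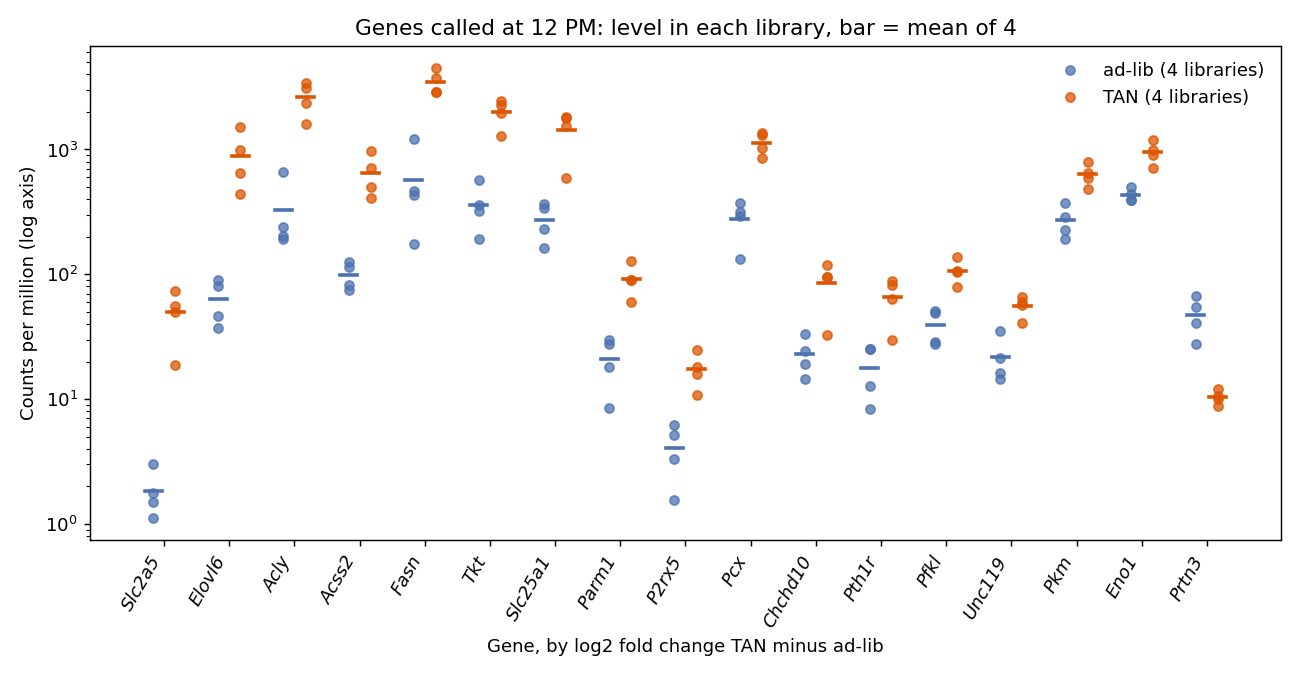
Level of 17 of the called genes in each of the 8 libraries at 12 PM, in CPM on a log axis, with ad-lib libraries in blue, TAN libraries in orange and a bar at the mean of 4 libraries. The groups are apart for every gene shown except Chchd10, where the lowest TAN library (32.7 CPM) lies within the ad-lib range (14.5 to 33.5 CPM), and Prtn3 is the gene that was lower in TAN.

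At the point of sugar entry, Slc2a5 had the highest fold change of the called genes. It encodes GLUT5, the fructose transporter. In ad-lib replicates 1 to 4 it stood at 1.12, 1.76, 3.02 and 1.51 CPM, and in TAN replicates 1 to 4 at 49.8, 55.5, 18.9 and 73.7 CPM. Thus the gene was detected but weakly expressed in every ad-lib library and well expressed in every TAN library, with TAN replicate 3 the lowest TAN library. The log2 fold change was 4.74 ± 0.83 (SE; adjusted p = 0.00412), about 26.7-fold. The gene was called in 6 of the 8 fits that left out a library, and the adjusted p reached 0.0612 in those without ad-lib replicates 1 and 2.

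The other 12 hexose entry genes tested were not called. Slc2a4, the insulin-responsive glucose transporter GLUT4, ranged from 131 to 349 CPM in ad-lib and from 228 to 413 CPM in TAN (log2 fold change 0.42 ± 0.44). Khk, the kinase that starts fructose breakdown, stood at 17.6 to 28.3 CPM in ad-lib and 16.4 to 24.6 CPM in TAN (-0.10 ± 0.28). Hk2, the insulin-regulated hexokinase, was at 36.9 to 213 CPM and 79.4 to 157 CPM (0.04 ± 0.51). The groups overlapped for these genes, and the 13 genes of the list had a median log2 fold change of 0.08.

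In glycolysis and pyruvate entry, 4 of 25 genes tested increased. All 4 TAN libraries were above all ad-lib libraries for 6 of the 25, against 3.3% of all genes tested. Pfkl, the liver-type phosphofructokinase at the committed step of glycolysis, stood at 28.6, 27.7, 50.4 and 49.2 CPM in ad-lib replicates 1 to 4 and at 106, 104, 78.7 and 136 CPM in TAN replicates 1 to 4. Its log2 fold change was 1.45 ± 0.23 (adjusted p = 0.00131). The groups did not overlap, and the call held without any single library. Pkm, the pyruvate kinase that makes pyruvate and ATP at the end of glycolysis, had 192, 227, 376 and 287 CPM in ad-lib and 595, 654, 481 and 796 CPM in TAN, a log2 fold change of 1.22 ± 0.22 (adjusted p = 0.00412). It was called in 6 of the 8 fits, with an adjusted p of up to 0.0612 in the rest (without ad-lib replicates 1 or 2).

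Eno1, the enolase that precedes Pkm, had 397, 390.2, 498 and 437 CPM in ad-lib and 902, 987, 709 and 1195 CPM in TAN, a log2 fold change of 1.14 ± 0.24 (adjusted p = 0.0339). The value for Eno1 is uncertain because the near-identical copy Eno1b can share its reads, and the call was made in 1 of the 8 fits without a library (adjusted p up to 0.300). Pcx, pyruvate carboxylase, refills oxaloacetate for citrate synthesis. It stood at 294, 134, 373 and 315 CPM in the ad-lib libraries and at 1302, 1032, 854 and 1357 CPM in the TAN libraries. The log2 fold change was 2.03 ± 0.43 (adjusted p = 0.0339), the groups were far apart, and the call was made in 2 of the 8 fits (adjusted p up to 0.318).

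The other genes of this list were not called. Gpi1, the isomerase ahead of phosphofructokinase, ranged from 116 to 184 CPM in ad-lib and from 210.5 to 278 CPM in TAN (log2 fold change 0.74 ± 0.19, adjusted p = 0.176). Pfkp, the platelet-type phosphofructokinase, also did not overlap (82.8 to 107 against 114 to 145 CPM, 0.50 ± 0.21). The mitochondrial pyruvate carrier and the pyruvate dehydrogenase complex overlapped between the groups, with values of 0.94 ± 0.39 for Mpc1, 0.96 ± 0.38 for Mpc2, 0.90 ± 0.41 for Pdha1 and 0.83 ± 0.34 for Dlat. Aldoa, the muscle-type aldolase, had a log2 fold change of 0.85 ± 0.35, Pgam1, phosphoglycerate mutase, 0.30 ± 0.27, and Pdk4, the kinase that shuts pyruvate dehydrogenase during fasting, -0.05 ± 0.42. Of the 25 genes 19 had a positive value, with a median of 0.50 against 0.04 for all genes. Gapdh was counted at 0.3 to 7.4 CPM in the 8 libraries and is not interpreted, because its reads can fall on near-identical copies. With the lymphocyte covariate 9 of the 25 genes were called, adding Aldoa, Mpc1, Mpc2, Pdha1 and Dlat, and with the muscle covariate 2 were.

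**Figure D2:**
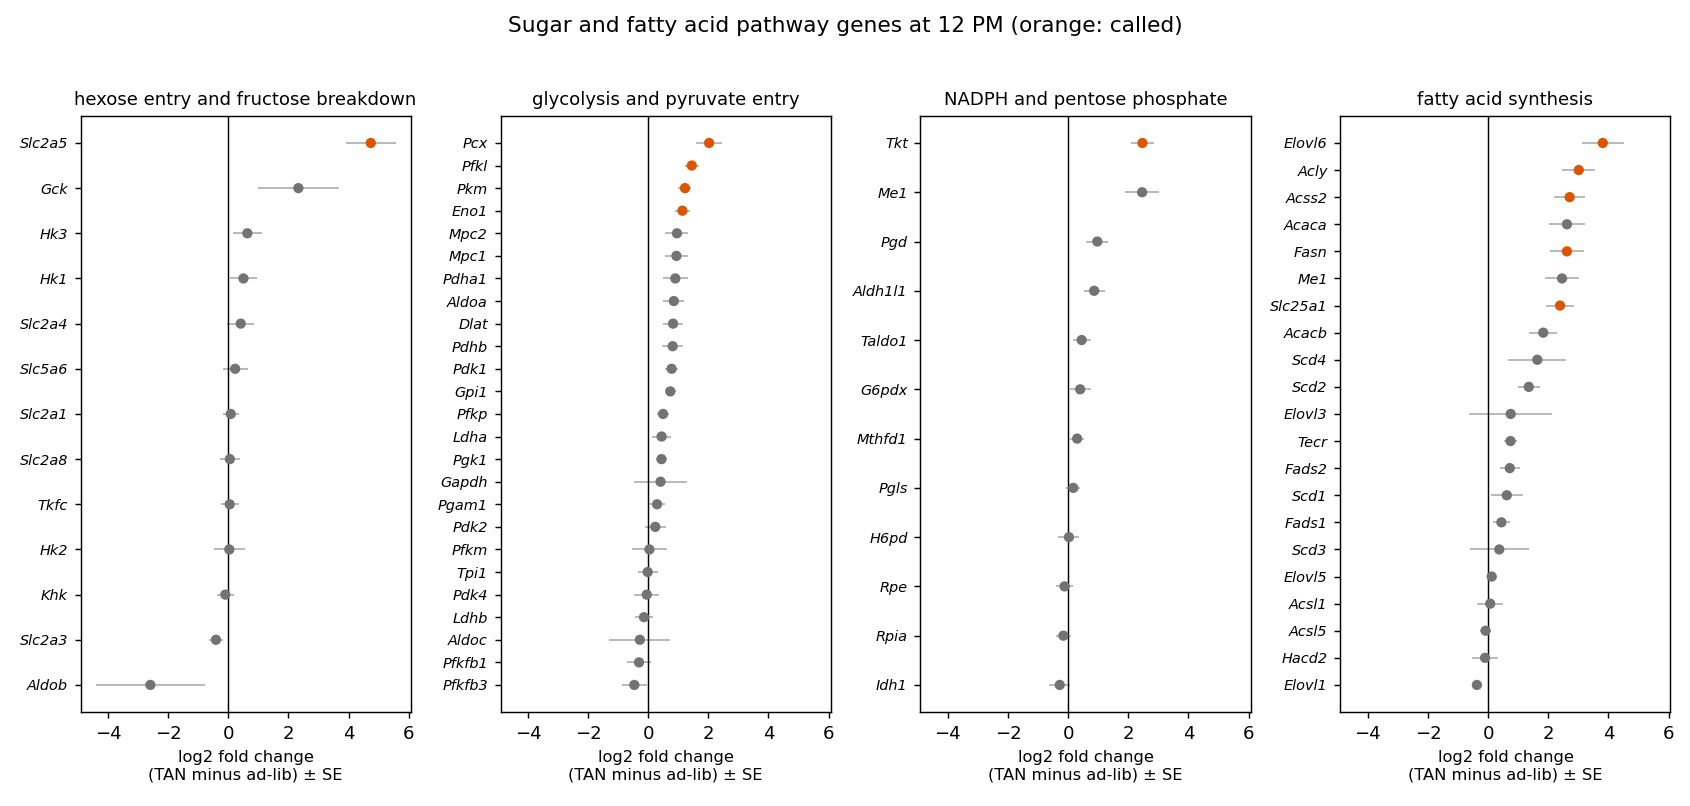
Log2 fold change (TAN minus ad-lib) at 12 PM with its SE for each gene tested in 4 lists, from sugar entry to fatty acid synthesis, with called genes in orange. The called genes are Slc2a5 in the first list, Pcx, Pfkl, Pkm and Eno1 in the second, Tkt in the third, and Elovl6, Acly, Acss2, Fasn and Slc25a1 in the fourth.

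All TAN libraries were above all ad-lib libraries for 11 of the 21 fatty acid synthesis genes tested, against 3.3% of all genes tested. Among the pathway lists fatty acid synthesis held the most called genes, 5 of the 21. They are the citrate carrier, enzymes that make acetyl-CoA from citrate and from acetate, the synthase and an elongase, while the carboxylases were not called. Slc25a1, the mitochondrial citrate carrier, had 338, 161, 364 and 229 CPM in ad-lib replicates 1 to 4 and 1829, 1539, 589 and 1779.8 CPM in TAN replicates 1 to 4. TAN replicate 3 was low among the TAN libraries and still above all ad-lib libraries, and the log2 fold change was 2.39 ± 0.47 (adjusted p = 0.0169). Acly, ATP citrate lyase, stood at 204, 190.1, 666 and 238 CPM in ad-lib and at 3094, 2376, 1596 and 3432 CPM in TAN. Ad-lib replicate 3 was far from the other ad-lib libraries, and the log2 fold change was 3.02 ± 0.56 (adjusted p = 0.00704).

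Acss2, the cytosolic synthetase that makes acetyl-CoA from acetate, had 115, 74.8, 125 and 81.5 CPM in ad-lib and 503, 715, 412 and 965 CPM in TAN, a log2 fold change of 2.71 ± 0.51 (adjusted p = 0.0104). Fasn, fatty acid synthase, stood at 434, 174, 1205 and 461 CPM in ad-lib and at 3749, 2895, 2897 and 4462 CPM in TAN. The ad-lib libraries spread widely, and the log2 fold change of 2.62 ± 0.57 was close to the threshold (adjusted p = 0.0402). Elovl6, which extends palmitate to stearate, had 81.2, 37.1, 89.4 and 46.5 CPM in ad-lib and 643, 982, 442 and 1509.8 CPM in TAN, a log2 fold change of 3.81 ± 0.69 (adjusted p = 0.00609). Its lowest TAN library was well above its highest ad-lib library.

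When 1 library at a time was left out, 5 of the 8 fits called Acly and Elovl6, 4 called Acss2, 2 called Slc25a1 and 1 called Fasn. With the lymphocyte covariate 10 of the 21 genes were called, adding Acaca, Acacb, Scd2, Me1 and Tecr, where 79 of all 19977 genes tested were higher. The highest adjusted p in these fits was 0.0871 for Acly, 0.0726 for Elovl6, 0.104 for Acss2, 0.181 for Slc25a1 and 0.339 for Fasn. Leaving out ad-lib replicates 1, 2 or 4 ended the call of each of the 5 genes. With the 8 libraries of 12 PM fitted alone, only Slc2a5 (adjusted p = 0.0209), Elovl6 and Acss2 (0.0373 each) were called. Acss2 overlaps other genes on both strands, which held at most 585 counts in any of the 8 libraries.

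The promoters of Slc25a1, Fasn and Pcx, called genes of the route, are shown because these windows hold the letters searched for. The stretches are the 250 bases before the gene's start in RefSeq on GRCm38.p6, at chr16:17928220-17928469 on the minus strand, chr11:120824548-120824797 on the minus strand and chr19:4510222-4510471 on the plus strand. Capitals mark CACGTG, the E-box, and CCAAT or its reverse complement ATTGG, the CCAAT box, and in Fasn 2 of the CCAAT boxes overlap in CCAATTGG.
Slc25a1: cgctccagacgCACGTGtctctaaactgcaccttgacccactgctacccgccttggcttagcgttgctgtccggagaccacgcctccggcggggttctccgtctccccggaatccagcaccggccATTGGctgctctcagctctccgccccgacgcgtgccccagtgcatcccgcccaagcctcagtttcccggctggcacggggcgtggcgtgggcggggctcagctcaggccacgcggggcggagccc
Fasn: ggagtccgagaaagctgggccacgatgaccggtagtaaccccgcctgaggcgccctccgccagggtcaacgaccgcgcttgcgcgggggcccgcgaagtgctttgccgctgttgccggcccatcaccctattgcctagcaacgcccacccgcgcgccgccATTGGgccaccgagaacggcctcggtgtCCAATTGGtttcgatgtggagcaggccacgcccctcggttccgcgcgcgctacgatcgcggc
Pcx: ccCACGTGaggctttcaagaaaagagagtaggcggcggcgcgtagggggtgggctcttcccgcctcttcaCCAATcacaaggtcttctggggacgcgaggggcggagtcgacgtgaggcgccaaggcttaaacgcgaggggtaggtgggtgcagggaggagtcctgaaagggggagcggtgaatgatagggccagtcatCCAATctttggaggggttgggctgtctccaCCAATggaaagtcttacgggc
Counted from the start of the gene, the E-box began at -239 in Slc25a1 and at -248 in Pcx, and CCAAT boxes began at -125 in Slc25a1, at -90, -62 and -59 in Fasn, and at -180, -51 and -21 in Pcx. RefSeq held promoters for 16 of the 18 called genes, in 24 windows of 300 bases that reach to 50 bases past the start. On either strand, CACGTG was in 2 of the 24 windows (8.33%, against 7.15% of all 32851 windows of that length), TCACNCC, a core of sterol regulatory elements, in 6 (25%, against 15.6%), and CCAAT in 12 (50%, against 37.4%). The windows of Elovl6, Pfkl and Slc2a5, also of the route, held 0 matches. Several of the 24 windows belong to the same gene, and a match describes letters and no binding.

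Of the 16 fatty acid synthesis genes that were not called, Acaca and Me1 came closest. Acaca, the cytosolic acetyl-CoA carboxylase, had 157, 88.2, 396 and 333 CPM in ad-lib and 1312, 1236, 1301 and 2163 CPM in TAN, a log2 fold change of 2.62 ± 0.61 (adjusted p = 0.0859). Me1, malic enzyme, which makes NADPH in the cytosol, had 753, 376, 622 and 367 CPM in ad-lib and 2596, 3195, 1521 and 4342 CPM in TAN, a log2 fold change of 2.46 ± 0.57 (adjusted p = 0.0882). The fold changes of both were of the size of those called, and both were called by DESeq2 (adjusted p = 0.00208 and 0.00258). Acacb, the mitochondrial carboxylase, did not overlap either (12.2 to 43.0 against 68.1 to 122 CPM, 1.83 ± 0.46). Scd1, the main desaturase of the tissue, overlapped widely at 11855 to 34262 CPM in ad-lib and 25552 to 42374 CPM in TAN (0.62 ± 0.52), whereas Scd2 did not overlap (227 to 467 against 600.2 to 1221 CPM, 1.35 ± 0.37, adjusted p = 0.225). Of the 21 genes 18 had a positive value, and the median was 0.75.

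NADPH for the synthesis comes from malic enzyme and the pentose phosphate pathway, where 1 of 12 genes tested increased. Tkt, the transketolase of the non-oxidative branch, stood at 322, 190.0, 565 and 362 CPM in ad-lib replicates 1 to 4 and at 1973, 2255, 1294 and 2453 CPM in TAN replicates 1 to 4. The groups were far apart, the log2 fold change was 2.47 ± 0.38 (adjusted p = 0.000865), and the gene was called without any single library. The enzymes of the oxidative branch overlapped between the groups. G6pdx, which makes the first NADPH, was at 100.1 to 171 CPM and 134 to 239 CPM (log2 fold change 0.40 ± 0.35), Pgd was at 192 to 375 CPM and 369.9 to 736 CPM (0.97 ± 0.36, adjusted p = 0.574), and Taldo1, transaldolase, had a log2 fold change of 0.45 ± 0.29. With the lymphocyte covariate 4 of the 12 genes were called, adding Pgd, Me1 and Aldh1l1.

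On a scale of mean CPM per kilobase of exon, which allows levels of different genes to be compared, Slc25a1 (663), Acly (497), Fasn (319.8) and Tkt (271) were the most abundant called genes in TAN, and Slc25a1 (126), Eno1 (80.0), Acly (61.5) and Pcx (60.2) in ad-lib. Slc2a5 stood at 14.5 in TAN and 0.544 in ad-lib.

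Other called genes that were higher are not enzymes of this route. Chchd10, a small protein of the mitochondrial intermembrane space, had 14.5, 18.9, 24.2 and 33.5 CPM in ad-lib and 118, 95.6, 32.7 and 95.6 CPM in TAN. TAN replicate 3 fell just below the highest ad-lib library, and the log2 fold change was 1.91 ± 0.33 (adjusted p = 0.00412). Mmp11 and Gm867 overlap Chchd10 on the other strand with at most 217 counts in any of the 8 libraries, against 336 to 823 counts of Chchd10 in ad-lib and 898 to 2557 in TAN, and reads of these genes cannot be told apart where the libraries do not mark the strand. Unc119, a chaperone for lipid-modified proteins, had 34.8, 16.1, 14.5 and 21.3 CPM in ad-lib and 66.3, 56.6, 41.1 and 60.2 CPM in TAN, a log2 fold change of 1.37 ± 0.26 (adjusted p = 0.0116).

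Parm1, a mucin-like membrane protein, stood at 8.51, 18.1, 27.8 and 29.99 CPM in ad-lib and at 89.9, 90.7, 59.7 and 127 CPM in TAN (log2 fold change 2.12 ± 0.44, adjusted p = 0.0322). P2rx5, an ATP-gated channel used as a surface marker of brown and beige adipocytes, had 5.18, 1.55, 3.31 and 6.15 CPM in ad-lib and 18.1, 15.9, 10.9 and 24.9 CPM in TAN (2.11 ± 0.45, adjusted p = 0.0339). Pth1r, the receptor of parathyroid hormone and its related peptide, had 25.1, 8.29, 25.1 and 12.7 CPM in ad-lib and 81.9, 63.2, 29.5 and 88.9 CPM in TAN (1.89 ± 0.41, adjusted p = 0.0402). In each of these genes TAN replicate 3 was the lowest TAN library. The fits without 1 library called Chchd10 in 6 of 8, Unc119 in 3, Parm1 and Pth1r in 2 and P2rx5 in 1, with an adjusted p of up to 0.0612, 0.144, 0.254, 0.367 and 0.318.

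The libraries kept much the same order across the 17 higher genes. TAN replicate 3 was the lowest TAN library for 16 of them, at a median of 0.635 times the group mean, and TAN replicate 4 was the highest for 13, at a median of 1.27 times. In ad-lib, replicate 2 was the lowest for 12 genes (0.591 times) and replicate 3 the highest for 11 (1.33 times). Over all genes tested the median SD of log2 CPM was 0.68 in ad-lib and 0.36 in TAN.

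Prtn3, which encodes the neutrophil granule protease proteinase 3, was the called gene that decreased. It stood at 54.3, 40.6, 66.6 and 27.6 CPM in ad-lib replicates 1 to 4 and at 10.7, 8.76, 10.05 and 11.96 CPM in TAN replicates 1 to 4. The TAN libraries lay close together below all ad-lib libraries, with a log2 fold change of -2.19 ± 0.45 (adjusted p = 0.0275). The call was made in 1 of the 8 fits without a library (that without ad-lib replicate 4) and the adjusted p reached 0.141. Plppr3 overlaps Prtn3 on the other strand with at most 440 counts in any library and had a log2 fold change of -0.17, and reads of the pair cannot be told apart where the libraries do not mark the strand.

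The other neutrophil markers were not called. Elane, the elastase stored in the same granules, was at 2.07 to 4.55 CPM in ad-lib and 0.874 to 2.54 CPM in TAN (log2 fold change -1.11 ± 0.94). Mpo, myeloperoxidase, was at 0 to 0.0408 CPM in ad-lib and at 0.0584 to 1.06 CPM in TAN. S100a8, an abundant neutrophil protein, was at 1.88 to 38.6 CPM and 3.39 to 8.82 CPM. Per kilobase of exon the ad-lib mean was 27.3 CPM for Prtn3, 3.07 CPM for Elane and 0.00298 CPM for Mpo, so that Prtn3 was counted without like levels of the other granule genes. The 15 neutrophil markers summed to 96.3, 187, 92.4 and 55.1 CPM in ad-lib and to 53.5, 31.6, 56.9 and 48.8 CPM in TAN (two-sided exact permutation p = 0.0571, adjusted p = 0.286 over 15 measures). Of 14 markers tested 5 had a positive log2 fold change (10 with limma voom), with a median of -0.70. Without ad-lib replicate 2 the direction of the list turned, with 10 of 14 values positive and a median of 0.96, and the part of neutrophil number in the result was not tested. In bulk tissue fewer cells of a type and less RNA per cell cannot be told apart.

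Just outside the threshold lay H2-Q10, a secreted class I-like MHC gene (log2 fold change 1.81 ± 0.40, adjusted p = 0.0506), Cidea, a lipid droplet protein of brown and beige adipocytes (1.92 ± 0.43, adjusted p = 0.0563), and Adap1 (1.44 ± 0.33, adjusted p = 0.0776). Cidea stood at 18.3, 20.9, 23.2 and 37.0 CPM in ad-lib and at 96.4, 114, 39.97 and 125 CPM in TAN, without overlap. Among genes with lower values the closest were Pdia4, a disulfide isomerase of the endoplasmic reticulum (-0.64 ± 0.15, adjusted p = 0.0930), and Nnat, a small membrane protein of the same compartment. Nnat had 2347, 1030.4, 2041 and 1082 CPM in ad-lib and 104, 434, 688 and 420.3 CPM in TAN (-1.98 ± 0.48, adjusted p = 0.123). Both groups of libraries were apart for Nnat, which limma voom and DESeq2 called lower (adjusted p = 0.0369 and 0.00358).

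The transcription factors of lipogenesis were not called. None of 19 regulators and sugar-responsive effectors passed the test at 12 PM, and their median log2 fold change was 0.39. Srebf1, which encodes SREBP-1, ranged from 71.2 to 364 CPM in ad-lib and from 183 to 370.3 CPM in TAN (0.49 ± 0.39). Mlxipl, which encodes ChREBP, was at 4.51 to 51.2 CPM in ad-lib and 35.9 to 52.5 CPM in TAN (0.88 ± 0.57). The sugar-responsive genes Thrsp (0.93 ± 0.54) and Pnpla3 (0.69 ± 0.47) overlapped between the groups as well, and Txnip, which restrains glucose uptake, was at 1059 to 1888 CPM and 870.2 to 1262 CPM (-0.63 ± 0.29). Of this list only Nr1h2, which encodes LXR beta, and Usf2 had all TAN libraries above all ad-lib libraries (0.40 ± 0.21 and 0.58 ± 0.27). These were 2 of the 19, against 3.3% of all genes tested.

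**Figure D3:**
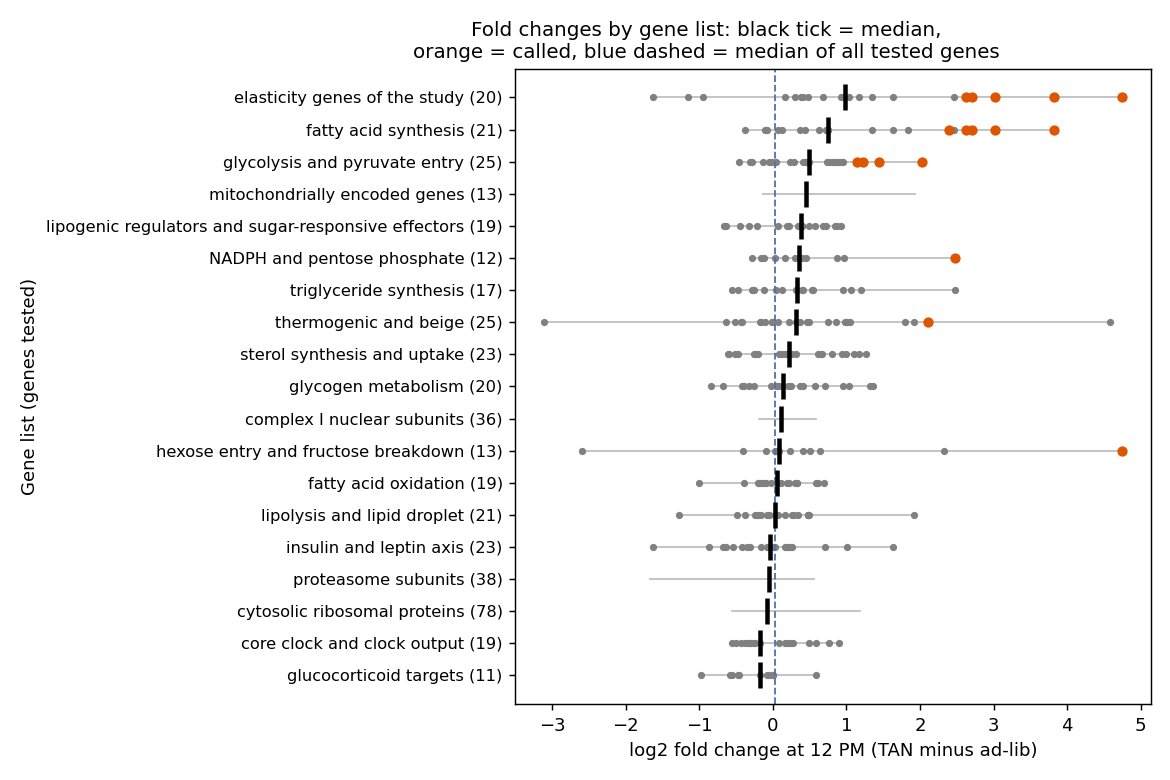
Log2 fold changes at 12 PM of the genes tested in each pathway list, with a black tick at the median of the list, called genes in orange and a dashed line at the median of all genes tested (0.04). The highest medians belong to the elasticity genes of the study (0.98) and to fatty acid synthesis (0.75), and the called genes fall in 5 pathway lists beside the elasticity genes.

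Sterol synthesis and uptake had 0 of 23 genes called, with a median of 0.23. Mvd, which makes isopentenyl pyrophosphate, was at 7.43, 4.85, 5.49 and 8.52 CPM in ad-lib and at 19.9, 13.95, 10.3 and 15.4 CPM in TAN (log2 fold change 1.18 ± 0.31, adjusted p = 0.208). Lss, lanosterol synthase, did not overlap either (12.2 to 31.8 against 43.4 to 78.8 CPM, 1.27 ± 0.35), nor did Nsdhl (0.94 ± 0.36). Sqle, squalene epoxidase, had a log2 fold change of 0.31 ± 0.30. Mvd, Lss and Nsdhl were the 3 members whose groups did not overlap, where 3.3% of all genes tested had all TAN libraries above. Fdps was counted at 0.3 to 1.6 CPM and is not interpreted, because near-identical copies can take its reads. With the lymphocyte covariate 4 of the 23 genes were called (Pmvk, Lss, Tm7sf2 and Nsdhl).

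Triglyceride synthesis had 0 of 17 genes called (median 0.33) and lipolysis 0 of 21 (median 0.03). Dgat2, the last enzyme of triglyceride synthesis, was at 962 to 2536 CPM in ad-lib and 1778 to 2984 CPM in TAN (log2 fold change 0.41 ± 0.48), and Gpam, the first, had a value of 0.55 ± 0.54. Agpat2 was at 343 to 568 CPM and 466 to 1175 CPM (0.96 ± 0.44). The lipases Pnpla2 (0.26 ± 0.39) and Lipe (0.49 ± 0.37), the droplet coat protein Plin1 (0.16 ± 0.45) and lipoprotein lipase Lpl (0.48 ± 0.59) overlapped between the groups. Cidea, which belongs to the lipolysis and droplet list, was the member of that list whose groups did not overlap (1 of 21, against 3.3% of all genes tested with TAN above). G0s2, of the same list, was at 194 to 695 CPM in ad-lib and 100.3 to 309 CPM in TAN (-1.27 ± 0.48, adjusted p = 0.582). In the triglyceride list Agpat3 (0.53 ± 0.23) and Mogat2 (2.48 ± 1.09) had all TAN libraries above all ad-lib libraries, 2 of the 17, against 3.3% of all genes tested. With the lymphocyte covariate Mogat2 and Gpd1 of the triglyceride list and Cidea were called.

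Glycogen genes had 0 of 20 called (median 0.14). All TAN libraries were above all ad-lib libraries for 3 of the 20, Pygl and Gys2 among them, against 3.3% of all genes tested. Pygl, glycogen phosphorylase, was at 148, 85.8, 185 and 115 CPM in ad-lib and 297, 370.5, 259.7 and 446 CPM in TAN (log2 fold change 1.36 ± 0.40, adjusted p = 0.378), and was called with the lymphocyte covariate. Gys2, glycogen synthase of the liver type, was at 12.8 to 18.8 CPM and 23.8 to 58.8 CPM (1.32 ± 0.47). The glycogen targeting subunits Ppp1r3b (1.03 ± 0.79) and Ppp1r3c (-0.84 ± 0.69) had wide errors, with ad-lib replicate 3 high in both. Fatty acid oxidation had 0 of 19 genes called (median 0.05). Hadha, of the mitochondrial trifunctional protein, was at 125 to 247 CPM in ad-lib and at 249 to 376 CPM in TAN (0.69 ± 0.26), with TAN above all ad-lib libraries. Of the 19 genes 1 had all TAN libraries above and 1 below, against 3.3% and 1.54% of all genes tested.

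Thermogenic and beige genes had 1 of 25 called, P2rx5, with a median of 0.32, and 2 with the lymphocyte covariate, adding Cidea. With the muscle covariate 0 were called, and likewise 0 with the 8 libraries fitted alone. Without ad-lib replicate 2 the median was 0.07. Ucp1, the uncoupling protein that defines thermogenic fat, was at 0 to 0.902 CPM in ad-lib and 0.182 to 2.40 CPM in TAN and overlapped between the groups. Dio2 (-0.64 ± 1.10), Prdm16 (-0.01 ± 0.45) and Ppargc1a (-0.17 ± 0.48) overlapped too. Cidea and P2rx5 were the 2 genes of the list with all TAN libraries above all ad-lib libraries, and Fgf21, at 0.326 to 1.48 CPM in ad-lib and at 0 to 0.170 CPM in TAN, was the member with all TAN libraries below. Over all genes tested the shares were 3.3% above and 1.54% below. Clock genes had 0 of 19 called (median -0.17, or 0.09 with limma voom and 0.36 without ad-lib replicate 3). Arntl (-0.23 ± 0.36), Per2 (-0.44 ± 0.59), Cry1 (0.09 ± 0.26), Nr1d1 (0.49 ± 0.52) and the output gene Dbp (0.28 ± 0.49) overlapped. Npas2 was the member of the clock list with all TAN libraries above all ad-lib libraries (1 of 19, against 3.3% of all genes tested).

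Of the insulin and leptin axis 0 of 23 genes were called (median -0.04). Lep, which encodes leptin, was at 3209.9, 762, 1887 and 519.7 CPM in ad-lib and at 203, 471, 703 and 686 CPM in TAN. The lowest ad-lib library fell within the TAN range, and the log2 fold change was -1.63 ± 0.63 (adjusted p = 0.594). The insulin receptor Insr (-0.03 ± 0.36), Irs2 (-0.63 ± 0.36) and Foxo1 (-0.07 ± 0.20) overlapped between the groups, and Akt1 (42.8 to 72.4 against 84.2 to 123 CPM, 0.71 ± 0.29) and Sorl1, a sorting receptor (12.4 to 98.8 against 138 to 161 CPM, 1.63 ± 0.54), did not. All TAN libraries were above for 2 of the 23, against 3.3% of all genes tested. Of 11 glucocorticoid targets 0 were called, with a median of -0.18. Tsc22d3 (115 to 165 against 79.4 to 106 CPM) and Sgk1 (84.3 to 102 against 49.2 to 73.3 CPM) had all TAN libraries below all ad-lib libraries, whereas Fkbp5 did not (21.9 to 39.2 against 24.8 to 35.8 CPM). These were 2 of the 11, against 1.54% of all genes tested with TAN below.

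The study follows 20 genes that it terms elasticity genes, as a readout of metabolic flexibility, and 5 of them were called at 12 PM (7 with the lymphocyte covariate, adding Scd2 and Me1). They are Slc2a5, Acly, Elovl6, Fasn and Acss2, already described. With the 8 libraries fitted alone 3 of the 20 were called, and 0 without ad-lib replicate 1 or without ad-lib replicate 2. All TAN libraries were above all ad-lib libraries for 9 of the 20, adding Scd2, Me1, Mvd and Sorl1, against 3.3% of all genes tested. The median was 0.98 and 17 of 20 values were positive. The study used this list on these same samples, so that its count is not independent evidence. Negative values belonged to Lep, Peg3 and Zim1. Peg3, an imprinted zinc finger gene, was at 23.2 to 112 CPM in ad-lib and 15.4 to 62.9 CPM in TAN (-1.15 ± 0.64), and Angptl8, an insulin-responsive secreted inhibitor of lipoprotein lipase, at 5.196 to 80.6 CPM and 11.7 to 72.3 CPM (0.39 ± 0.85).

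Among housekeeping complexes 0 genes were called. The median log2 fold change was -0.05 for 38 proteasome subunits, 0.11 for 36 nuclear subunits of complex I, 0.45 for 13 mitochondrially encoded genes and -0.08 for 78 cytosolic ribosomal proteins. All TAN libraries were above all ad-lib libraries for 3 of the 13 mitochondrially encoded genes and 1 of the 78 ribosomal genes. The same held for 0 of the proteasome and complex I genes and for 3.3% of all genes tested. Single members stood at 0.01 ± 0.22 (Psma6), 0.59 ± 0.30 (Ndufa1), 0.28 ± 0.32 (mt-Co1) and -0.14 ± 0.36 (Rpl3).

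Markers of the other cell types that the tissue can hold overlapped between the groups and gave 0 calls outside the neutrophil list. All 10 macrophage markers had negative log2 fold changes (median -0.51; 9 of 10 with limma voom), but without ad-lib replicate 2, the library with the highest sum, 5 of 10 were positive and the median was -0.02. Macrophage markers had summed levels of 644 to 3948 CPM in ad-lib and 1133 to 1618 CPM in TAN, and Adgre1, which encodes F4/80, was at 24.4 to 107 CPM and 18.8 to 34.6 CPM. The T cell gene Cd3e was at 0.130 to 47.2 CPM in ad-lib and 14.5 to 37.7 CPM in TAN. Markers of stromal progenitors summed to 1788 to 5072 CPM in ad-lib and 1803 to 2605 CPM in TAN, those of endothelium to 433 to 909.5 CPM and 544 to 686 CPM, those of erythrocytes to 568 to 1477 CPM and 453 to 955 CPM, those of ILC2 and eosinophils to 18.3 to 106 CPM and 38.5 to 63.5 CPM, and those of mammary or skin epithelium to 7.71 to 9.10 CPM and 5.94 to 7.94 CPM. The keratin Krt14 and the ILC2 cytokine Areg were at 0 in all 8 libraries. Genes induced by dissection stress summed to 207 to 243 CPM in ad-lib and 194 to 369.9 CPM in TAN.

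**Figure D4:**
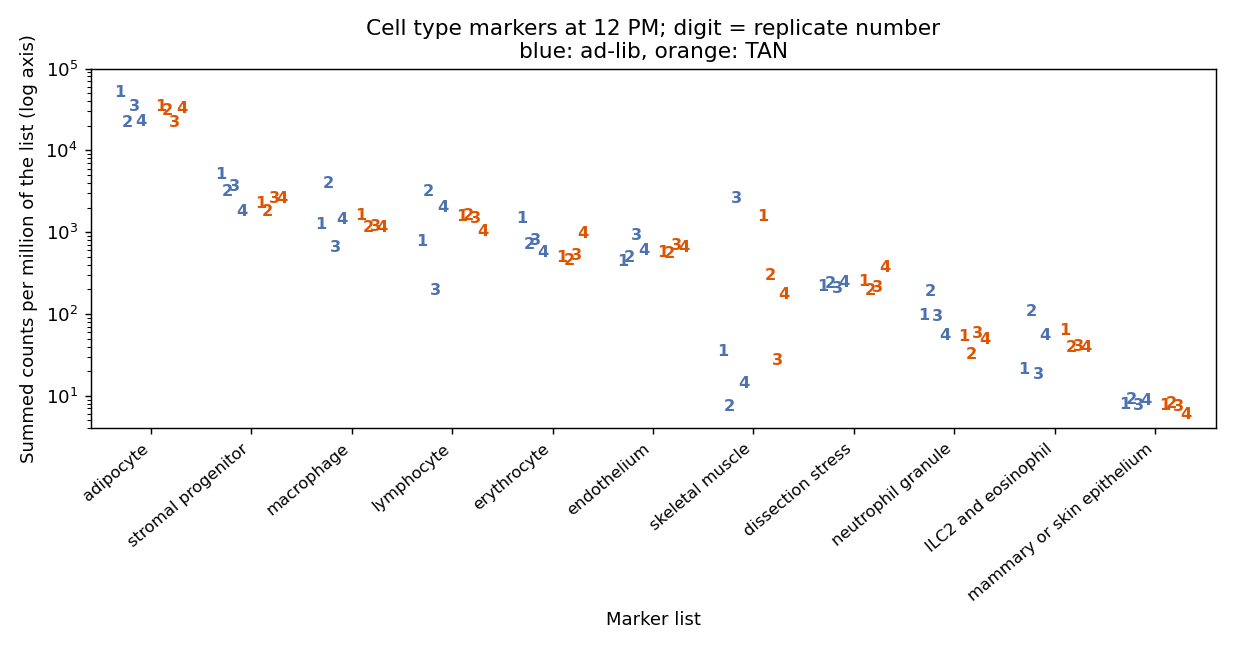
Summed CPM of each marker list in the 8 libraries at 12 PM, on a log axis, where each digit is the replicate number, in blue for ad-lib and in orange for TAN. The ad-lib libraries spread widely for lymphocyte markers (196 to 3177 CPM) and muscle markers (7.47 to 2583 CPM), and the groups overlap in every list shown.

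The 17 higher genes were then followed over the other 5 time points, whose comparisons use other libraries. Their median log2 fold change was 0.85 at 8 AM, 2.12 at 12 PM, 2.10 at 4 PM, 0.49 at 8 PM, 1.77 at 12 AM and 0.93 at 4 AM. All 17 values were positive at each time but 8 PM, where 15 were. All 17 genes were also called higher at 4 PM, 5 at 12 AM, 1 at 8 AM, 1 at 8 PM and 0 at 4 AM. The number of calls over all genes differed widely between these comparisons, with 586 genes higher at 4 PM (2.93% of those tested), 22 at 12 AM (0.11%), 2 at 8 AM (0.01%), 237 at 8 PM (1.19%) and 0 at 4 AM (0%).

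Among 5 called genes with small p at 12 PM, the ad-lib mean was at its lowest of the 6 times at 12 PM for Tkt, Pfkl, Pkm and Chchd10, and at 4 PM for Slc2a5. Choosing genes by their p at 12 PM favours those with low ad-lib levels at that time, so that no time pattern is read from this. Slc2a5 in ad-lib was 1.85 ± 0.819 CPM at 12 PM (mean ± SD, n = 4), 1.60 ± 1.96 CPM at 4 PM and 9.45 ± 4.59 CPM at 12 AM, and in TAN it was 49.5 ± 22.8 CPM, 35.1 ± 28.7 CPM and 95.99 ± 42.5 CPM at the same times. The TAN level was thus not highest at 12 PM. Tkt in ad-lib was 359 ± 155 CPM at 12 PM and 715 ± 68.1 CPM at 12 AM, and in TAN 1994 ± 506 CPM and 2638 ± 820.5 CPM. Pfkl in ad-lib was 39.0 ± 12.5 CPM at 12 PM and 73.0 ± 7.50 CPM at 12 AM, while in TAN it was 106 ± 23.6 CPM and 124 ± 24.3 CPM. Pkm in TAN was 632 ± 131 CPM at 12 PM and 662 ± 121 CPM at 12 AM, and Chchd10 85.5 ± 36.8 CPM and 105 ± 33.2 CPM.

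**Figure D5:**
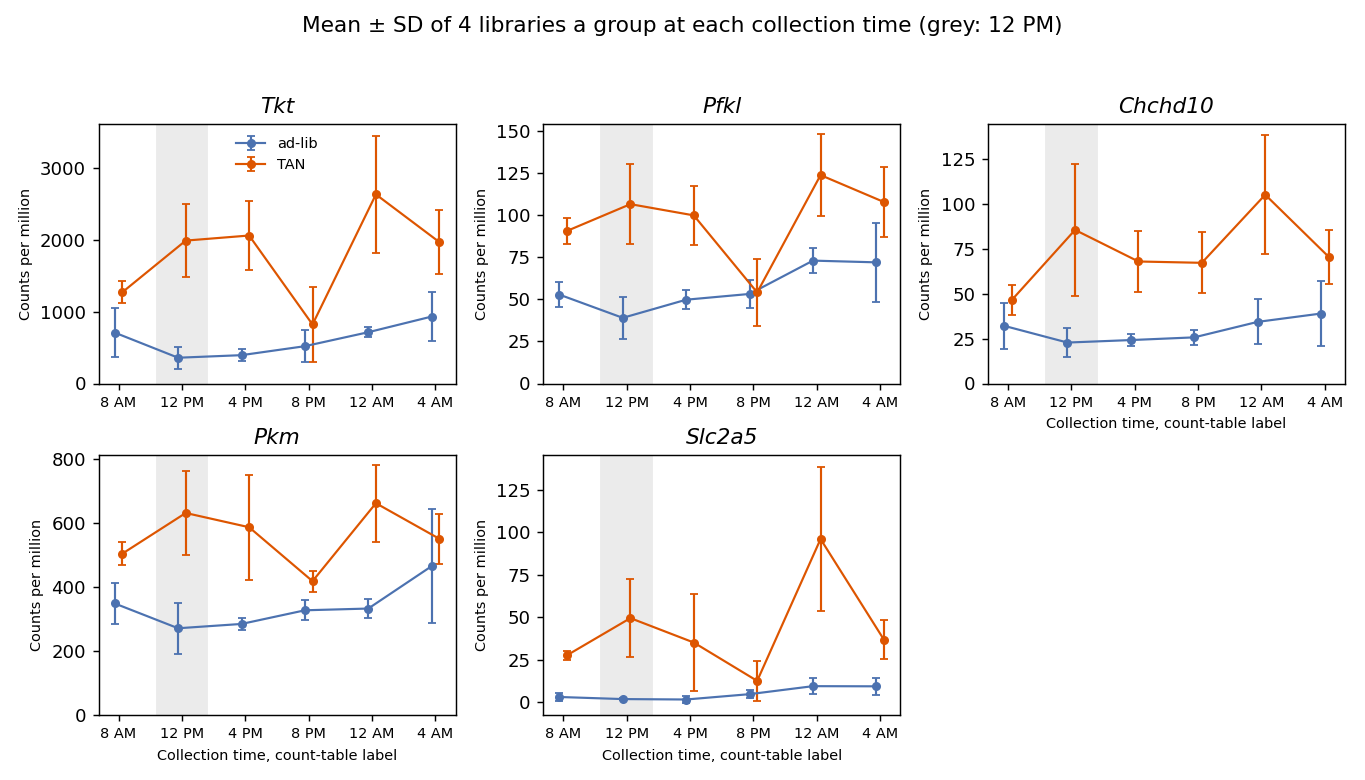
Mean CPM with SD of 4 libraries a group at the 6 collection times by the count-table labels, for 5 called genes with small p at 12 PM (12 PM shaded, ad-lib blue, TAN orange). TAN means lie above ad-lib means at every time in each panel and come closest at 8 PM for Tkt, Pfkl and Slc2a5, and at 12 PM they stand at 49.5 against 1.85 CPM for Slc2a5 and at 106 against 39.0 CPM for Pfkl.

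Whether the TAN effect at 12 PM was particular to that time was tested in the same model. Against the mean effect of the other 5 times, 0 genes differed (0%), with a smallest adjusted p of 0.250, and 1234 genes had a higher and 732 a lower effect at an unadjusted p under 0.05. DESeq2 called 24 genes in this test and limma voom 0. Of the 18 genes called at 12 PM, 14 had an unadjusted p under 0.05 here, against 9.84% of all genes, but they were chosen for their effect at 12 PM, so that nothing is read from this count. Prtn3 had the smallest, with an effect at 12 PM that was lower by a log2 difference of -1.86 ± 0.48 (SE, adjusted p = 0.270 in edgeR). The ad-lib mean of Prtn3 was 47.3 ± 16.9 CPM at 12 PM and 15.3 to 29.6 CPM at the other times, while the TAN mean was 10.4 ± 1.33 CPM at 12 PM and 10.6 to 25.0 CPM otherwise.

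The pair of times whose labels are exchanged between the sources was compared directly. The effects at 12 PM and 12 AM differed for 1 gene (0.00501% of those tested), F730311O21Rik, a long non-coding RNA gene at chr1:132342023-132349626. It had 5, 0, 8 and 20 counts in ad-lib and 41, 20, 67 and 13 counts in TAN at 12 PM, where it was not called (adjusted p = 0.594), and 0 counts in all 4 TAN libraries at 12 AM, where ad-lib had 0.781 to 1.44 CPM. Of the 18 genes called at 12 PM, 2 differed between the times at an unadjusted p under 0.05, against 15.5% of all genes, and the same choice applies. If the labels of the supplementary tables were used instead, the 12 PM comparison would hold the libraries labelled 12 AM in the count table. That comparison gave 22 genes higher and 5 lower, and shared 5 of the 17 higher genes (among them Tkt, Chchd10, Unc119 and Eno1), 29.4% of the 17 and 22.7% of the 22. In it Slc2a5 had a log2 fold change of 3.34 ± 0.77 (adjusted p = 0.0559), Elovl6 2.87 ± 0.66 (0.0559), Acly 1.86 ± 0.53 (0.118), Fasn 1.38 ± 0.54 (0.193) and Prtn3 -0.25 ± 0.43 (0.806). Of the 23 sterol genes 5 were called in that comparison and 0 in the one labelled 12 PM. These 2 comparisons share no libraries.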

How the data were processed

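The authors isolated total RNA from iWAT, enriched it for poly-A transcripts, primed cDNA with random hexamers and sequenced both ends on an Illumina instrument. The authors deposited unnormalized read counts per gene for 48 libraries. A second table that the authors deposited gives FPKM as means of the 4 libraries in each group, and it served here only to check the time labels. The submitters' processing notes name TopHat 1.3.3, DESeq2 1.20.0, limma and edgeR and the builds mm9, mm10 and GRCm38. The counting tool and whether the libraries mark the strand are not given in the sources used here, and both a directional and a non-directional protocol are described. Start and end of 98.3% of the 54532 genes listed were those of GENCODE M21 on GRCm38, from which lengths and overlaps of genes were taken.

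Genes were kept by filterByExpr (minimum count 10) and libraries scaled by TMM, and a robust quasi-likelihood model of edgeR 4.0.16 in R 4.3.3 took all 48 libraries, with 1 mean for each of the 12 combinations of diet and time and a shared estimate of the spread. Contrasts were TAN minus ad-lib at 12 PM, and that difference minus the mean of the other 5 times or minus 12 AM. P-values were adjusted by Benjamini-Hochberg over the 19977 genes tested, and genes were called at an adjusted p under 0.05 with an absolute log2 fold change above 1. CPM were computed with TMM factors, their SD over 4 libraries, and log2 CPM used a prior count of 2. The SE of a fold change was derived from its F statistic. Values of single libraries were compared by an exact permutation test. The labels number the libraries but do not say that each came from a separate mouse, so p-values measure the spread between these libraries. Identical libraries were looked for (0 pairs), and every column of sample values had a sample.

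The genes named are all called genes, the key genes of each list and the elasticity genes of the study. The comparison, the gene lists and the rule for naming genes were chosen with earlier results of these data known. Genes named beside these were chosen after their values were seen. They lay just outside the threshold, had a large fold change without a call, had groups that did not overlap, or were called with a covariate. Alternatives were other filters, RLE factors, DESeq2 1.42.0, limma voom (limma 3.58.1), the 8 libraries alone, the replicate number as a block, marker covariates, mitochondrially encoded genes left out, unadjusted p, and each library left out in turn. The share of counts in genes of the TEC biotype as a covariate, the libraries of the other time label, and the 8 libraries with the block were added after seeing the data. The model was tested on simulated counts with known changes at 12 PM. It recovered 48 of 100 genes changed by a log2 value of 1.5 and 77 of 100 changed by 2.5, and called 3 unchanged genes. A gene that was not called can therefore have changed. The simulated counts of a gene had the same spread in every group and no added RNA of other cell types. In the data the median SD of log2 CPM at 12 PM was 0.68 in ad-lib and 0.36 in TAN. The simulated shares therefore need not hold for these libraries. Sequence reads were not analysed here, and some genes are counted but not reported by name.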

Additional observations from a re-analysis of the deposited data

Results flagged for a closer look

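Among 223 groups of 4 values of the named genes and library measures at 12 PM, 22 had 1 library far from the other 3 (a gap over 0.829 of the range of the group), where chance gives about 1 in 20 groups. The values are related, since several fall on the same library.

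Ad-lib replicate 3 was high for Acly (666 CPM against 190 to 238 CPM in the other ad-lib libraries), Ppp1r3b (151 against 25.8 to 32.9 CPM) and Angptl8 (80.6 against 5.2 to 17.1 CPM), and for the muscle genes Acta1 (885 against 6.48 to 33.6 CPM) and Myh4 (304 against 0 to 1.1 CPM) and the summed muscle markers (2580 against 7.47 to 34.7 CPM). Acly was the called gene among these, and without that library its log2 fold change was larger and it was called. Ad-lib replicate 2 was low for Acadvl, an enzyme of fatty acid oxidation (45.1 against 88.3 to 96.8 CPM), and for the mitochondrially encoded share (3.57% against 5.2% to 5.45%), and high for S100a8 (38.6 against 1.88 to 4.58 CPM). Ad-lib replicate 4 was high for Gata3, a transcription factor of T cells and ILC2 (3.63 against 0.0494 to 0.429 CPM).

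TAN replicate 4 was high for Acaca (2160 against 1240 to 1310 CPM), for the globin gene Hbb-bs (558 against 259 to 294 CPM) and the erythrocyte markers (955 against 453 to 520 CPM). TAN replicate 3 was low for the proteasome gene Psma6 (117 against 172 to 182 CPM) and the complex I gene Ndufa1 (30.7 against 54.7 to 58.9 CPM), and high for the imprinted gene Zim1 (3.39 against 1.23 to 1.34 CPM) and the share of counts in genes of the TEC biotype, loci of unverified transcription (0.109% against 0.0762% to 0.0795%). TAN replicate 1 was high for Acta1 (578 against 17 to 98.7 CPM), Elane (2.54 against 0.874 to 1.11 CPM), Krt18 (0.785 against 0.175 to 0.255 CPM), the macrophage markers (1620 against 1130 to 1170 CPM) and the ILC2 and eosinophil markers (63.5 against 38.5 to 39.9 CPM).

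The TAN effect on F730311O21Rik was higher at 12 PM than at 12 AM by a fitted log2 difference of 9.78 (adjusted p = 0.00477, edgeR's quasi-likelihood test). The TAN libraries at 12 AM held 0 counts, so that the size depends on the prior count of the fit and is no bound. With at least 10 counts required in every library of the 12 PM groups the gene was not tested.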

How the results depend on the processing

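The number of genes called higher at 12 PM, 17 as reported, was 38 with DESeq2 (41 at any fold change), 79 with the lymphocyte covariate (85), 11 with the muscle covariate, 3 with the 8 libraries fitted alone and 476 without adjustment of p (917). It was 3 to 20 when 1 library was left out, by the libraries named in the report. The number called lower, 1 as reported, was 8 with DESeq2 (18 at any fold change), 2 with limma voom, 4 with the lymphocyte covariate (8), 0 with the 8 libraries fitted alone, 110 without adjustment (556) and 0 to 1 without 1 library (0 to 2 at any fold change). With at least 10 counts in every library of the 12 PM groups 2 genes were lower at any fold change. The libraries that the supplementary tables list at 12 PM gave 5 lower genes. Other counts stayed within 1.5 times: 16 genes higher with no filter, 22 with at least 10 counts, 18 with RLE factors, 21 with limma voom, 17 without mitochondrially encoded genes and 20 with the TEC covariate. The median of all genes was 0.04 on the log2 scale as reported and 0.20 with limma voom, under which the list medians of neutrophil, ILC2 and eosinophil, skeletal muscle, epithelial and endothelial markers and of clock and insulin and leptin genes turned positive, while that of lipolysis genes turned negative with RLE factors and DESeq2. Leaving out 1 library turned the median of ILC2 and eosinophil markers from -0.21 to 0.70 (without ad-lib replicate 2), of lymphocyte markers from 0.26 to -0.15 (ad-lib replicate 1 or 3), of skeletal muscle markers from -0.34 to 6.49 (ad-lib replicate 3), of adipocyte markers from -0.16 to 0.19 (ad-lib replicate 1) and of dissection stress genes from 0.22 to -0.12 (TAN replicate 4), beside the lists named in the report. Medians of epithelial markers and, near 0, of endothelial, fatty acid oxidation, insulin and leptin and lipolysis genes also changed sign without single libraries. With the lymphocyte covariate the median turned positive for clock genes (-0.17 to 0.27), glucocorticoid targets (-0.18 to 0.12) and adipocyte markers (-0.16 to 0.37). Insulin and leptin genes and endothelial, muscle and epithelial markers also turned positive with it. Macrophage markers fell from -0.51 to -0.70, and ILC2 and eosinophil markers from -0.21 to -0.44.

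Genes whose effect differed from the mean of the other 5 times were 0 as reported, 24 with DESeq2 and 1966 without adjustment. Genes whose effect differed from that at 12 AM were 1 as reported, 0 with at least 10 counts, 93 with DESeq2, 19 with limma voom, 2 with the lymphocyte covariate and 3095 without adjustment. Both need the other times and could not be fitted to the 8 libraries alone.

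Replicate numbers did not pair the libraries. Over 5000 genes the correlation of the deviations of same-numbered TAN and ad-lib libraries was -0.188, 0.545, 0.166 and -0.586, and 1 of the 4 TAN libraries correlated best with its own number. With the replicate number as a block 18 genes were higher and 1 lower over the 48 libraries, and with the block in the 8 libraries alone 0 were higher and 0 lower.

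All 18 called genes kept their direction under every alternative fit named in the processing summary that was set at the start, while 30 of the 93 other genes of the naming rule changed sign under 1 or more of them. The causes of these changes were not tested. Depth limits the weakly expressed genes, such as Ucp1, Mpo and Fgf21, whose values rest on few counts. Intervals and errors do not cover the choice of mice, the discrepancy of the time labels or the smaller food intake of TAN mice.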
